A study of Mus musculus with 35 samples.

Results

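Total hippocampal RNA was compared between mice that had received kainic acid into the amygdala (IAKA) and mice that had received PBS 2 weeks earlier. The 9 libraries described here are the input (total RNA) libraries that the sample labels place at 2 weeks, out of 35 libraries in the series. They came from IAKA mice 42, 21, 5, 7, 9 and 6 and from PBS mice 2, 3 and 4, with 1 library per mouse. The other 26 libraries hold input RNA at 24 hours or RNA pulled down with an antibody against the m6A mark.

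The animals were adult male C57BL/6JOlaHsd mice. Kainic acid, an agonist of kainate-type glutamate receptors, was injected into the basolateral amygdala to trigger status epilepticus, and lorazepam was given afterwards to lessen the seizures. The control mice received PBS into the amygdala, and the sources used here do not say whether they also received lorazepam. A model of this kind limits the comparison to whole hippocampus, in which the share of each cell type and the RNA content of each cell both enter every value, so that fewer cells of a type and less RNA per cell cannot be told apart.

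After status epilepticus, astrocytes of the hippocampus typically enlarge and build more intermediate filaments, and microglia turn to phagocytosis and complement production. Vulnerable neurons in the hilus, CA3 and CA1 can die, while surviving neurons alter their neuropeptides, ion channels and inhibitory receptors. By 2 weeks mice of such models usually have spontaneous seizures, which themselves switch on activity-dependent genes for minutes to hours.

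Library totals ran from 3057578 to 8017282 counts, and 13752 genes passed the filter on low counts. Prox1, Wfs1, Grik4, Neurod6 and Zbtb20, which mark hippocampal neurons, were present in every library, with Zbtb20 between 524 and 1186 CPM, the count relative to a library size scaled by TMM. On a principal component analysis the first component held 39.2% of the variance of the 500 most variable genes, and IAKA mice 42 and 21 stood apart on it at 24.2 and 31.6. The other 4 IAKA libraries lay between -11.6 and 0.903 and the 3 PBS libraries between -12.4 and -8.66. These 2 libraries also had the lowest shares of mitochondrial reads, 1.68% and 1.41%, against 3.18 to 6.28% in the other 7. IAKA mice 42, 21 and 5 and the 3 PBS mice share 1 style of column name, and IAKA mice 7, 9 and 6 have another (the prefix Input), in which no 2-week library is labelled PBS. The difference between the sets therefore lies partly within the comparison, and values for the 6 libraries of the shared set, or without mice 42 and 21, are given beside many of the results below.

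**Figure D1:**
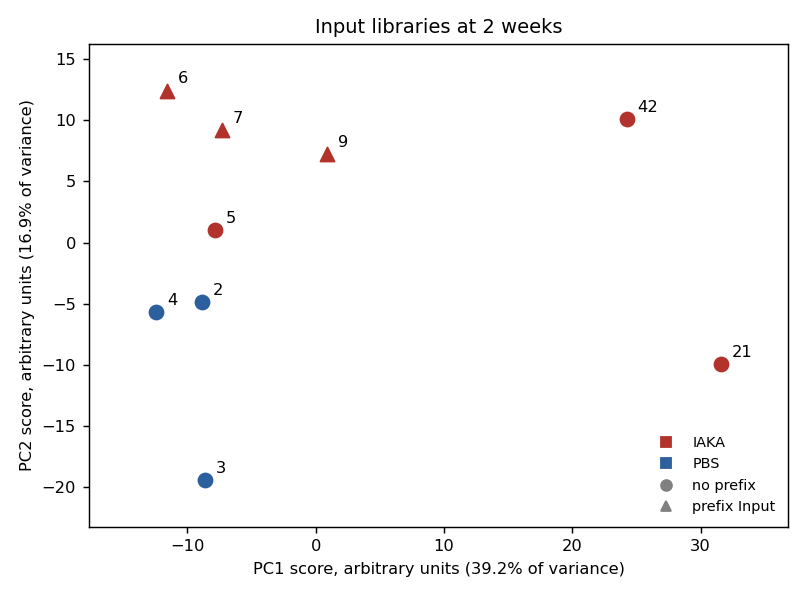
Scores of the 9 libraries on the first and second principal components of log2 CPM, in arbitrary units, with the share of variance on each axis. Points are libraries with the mouse number beside them, the colour gives the treatment and the shape the column name set. IAKA mice 42 and 21 lie far to the right of the other 7 libraries.

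RNA of neighbouring tissue differed among the libraries as well. Summed over 13 markers of choroid plexus, a tissue beside the hippocampus, the level was 481 to 3311 CPM in IAKA mice and 932 to 1667 CPM in PBS mice, with the highest value in IAKA mouse 21 and the lowest in IAKA mouse 6. The 15 markers of thalamus and cortex summed to 395 to 527 CPM in IAKA mice and to 538 to 686 CPM in PBS mice, without overlap. The 15 blood cell markers summed to 20.6 to 52.2 CPM and to 22.2 to 30.2 CPM, respectively. Their part in the results was not tested.

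The quasi-likelihood test of edgeR called no gene at an adjusted p under 0.05 (0%), and the smallest adjusted p was 0.190. At an unadjusted p under 0.05 the same test held 1938 genes, of which 1156 (8.41%) were higher and 782 (5.69%) lower in IAKA mice. The log2 fold change, IAKA over PBS, was above 0 in 7204 genes (52.4%), with a median of 0.02. All 6 IAKA libraries lay above all 3 PBS libraries in 505 genes (3.67%) and below them in 492 genes (3.58%). DESeq2 called 71 of 16434 genes higher (0.432%) and 42 lower (0.256%), and limma voom with quality weights called 198 of 13752 genes higher (1.44%) and 159 lower (1.16%). Both of these tools called 60 higher and 34 lower genes in common, and the libraries of the 2 groups did not overlap in 58 and 32 of them. Without mice 42 and 21, a comparison chosen after the data were seen, edgeR called 5 genes at an adjusted p under 0.05, all higher in IAKA mice: Gfap, Serpina3n, C4b, Vim and Vgf. Log2 fold changes and standard errors (SE) are those of edgeR throughout, also where a call is that of DESeq2 or voom.

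The higher genes with the smallest p and no overlap between groups were led by Ier5, an immediate early gene. Its level in IAKA mice had a lowest value of 23.9, a median of 33.5 and a highest value of 43.3 CPM, and was 14.6, 12.2 and 11.4 CPM in PBS mice 2, 3 and 4. The means were 33.6 ± 7.36 CPM (SD, n = 6) and 12.7 ± 1.64 CPM (SD, n = 3). Ier5 rose by 1.40 ± 0.21 (SE) on the log2 scale, called by DESeq2 (adjusted p = 5.83e-05) and voom (adjusted p = 0.00784), with edgeR at an adjusted p of 0.190. Without mice 42 and 21 the log2 fold change of Ier5 was 1.30, within the shared column name set 1.48, and with each library left out in turn 1.30 to 1.50.

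Among the other leading genes, Kmt5a, which places a single methyl group on histone H4, ranged from 36.7 to 52.2 CPM in IAKA mice (median 49.1) and measured 26.2, 28.9 and 24.7 CPM in PBS mice (log2 fold change 0.84). Dot1l, the methyltransferase of lysine residues in the core of histone H3, ranged from 39.2 to 54.6 CPM (median 47.6) against 31.6, 26.5 and 26.3 CPM (0.75). Rara, a nuclear receptor for retinoic acid, ranged from 7.10 to 13.8 CPM (median 9.11) against 2.25, 4.26 and 1.90 CPM (1.84). For all 3 the libraries of the groups did not overlap, and DESeq2 gave adjusted p-values of 0.000657, 0.00439 and 0.00171, while voom gave 0.0168, 0.0229 and 0.0168. The remaining genes of this rank were Fam53b (log2 fold change 0.98), Lrrc10b (0.96), Serinc2 (1.76), Numbl (0.81), which encodes a Numb-like adaptor, and Dnajb5 (0.89), a heat shock cochaperone. Each of these 5 was called by both DESeq2 and voom, at adjusted p-values of 0.00473 to 0.0358 and of 0.0168 to 0.0281.

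The gene with the largest fold change among those 10 was Gfap, which encodes the intermediate filament of astrocytes. Gfap measured 2218 CPM in IAKA mouse 42, had a median of 723 CPM and was lowest in IAKA mouse 5 at 500 CPM, while PBS mice 2, 3 and 4 measured 192, 159 and 155 CPM. The means were 954 ± 635 CPM (SD, n = 6) and 169 ± 20.6 CPM (SD, n = 3). The log2 fold change was 2.50 ± 0.46 (SE), with an adjusted p of 0.202 in edgeR, 0.000835 in DESeq2 and 0.0231 in voom. Without mouse 42 the edgeR adjusted p of Gfap was 0.00256 at a log2 fold change of 2.05, and without both mouse 42 and mouse 21 it was 0.000167 at 1.94. In the shared column name set the log2 fold change was 2.85.

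**Figure D2:**
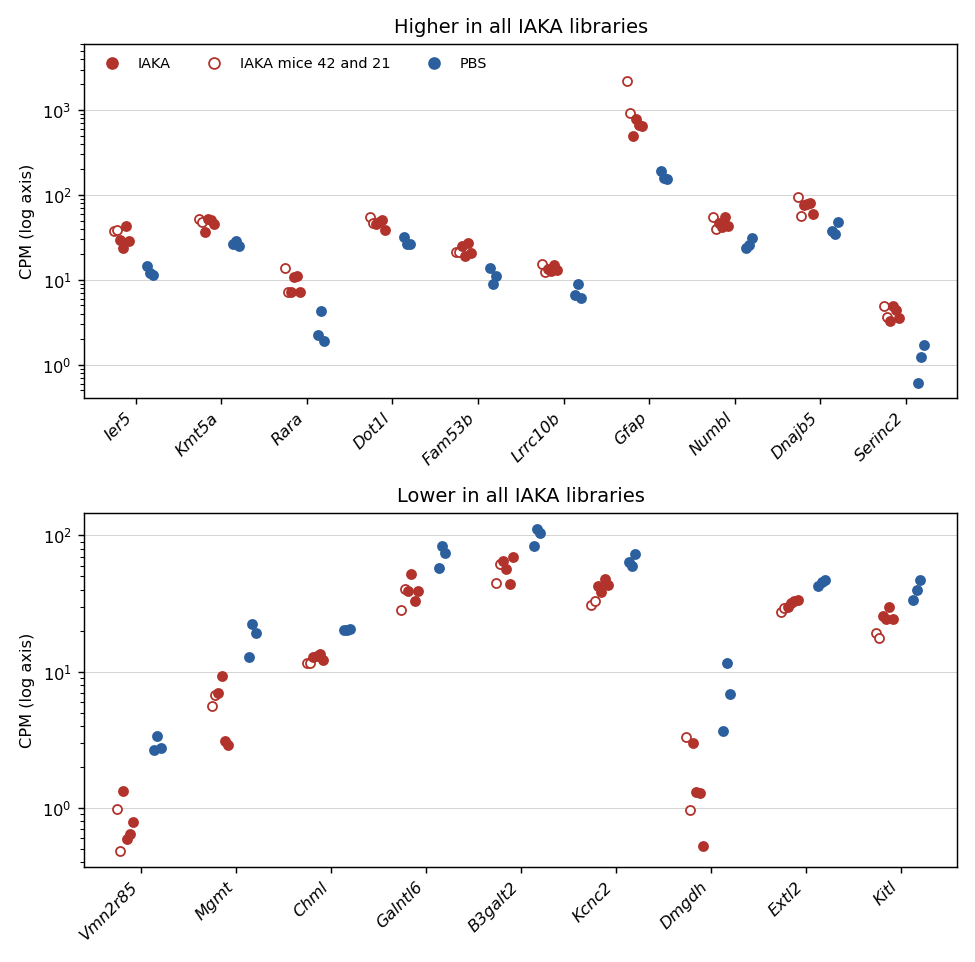
Level in CPM, on a log axis, of 10 higher and 9 lower genes with the smallest edgeR p among those whose groups did not overlap, with predicted genes of the Gm series left out. Each point is a library (6 IAKA, 3 PBS), with IAKA mice 42 and 21 drawn as open symbols. Gfap spans 500 to 2218 CPM in IAKA mice, and in every gene shown the 2 groups lie apart, which is how the genes were chosen.

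On the lower side, an ion channel, transferases and a repair enzyme were among the genes with the smallest p and no overlap. Kcnc2, which encodes the fast potassium channel Kv3.2 of interneurons, ranged from 30.6 to 48.1 CPM in IAKA mice and measured 64.0, 59.9 and 72.9 CPM in PBS mice. Kcnc2 fell by 0.73 (SE 0.15), with adjusted p-values of 0.0112 in DESeq2 and 0.0229 in voom.

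Of the other genes in this rank, Galntl6, a glycosyltransferase-like gene, ranged from 28.3 to 51.9 CPM in IAKA mice against 57.2, 83.4 and 74.1 CPM, and B3galt2, a galactosyltransferase, from 44.2 to 69.0 CPM against 84.0, 111 and 104 CPM. Their log2 fold changes were -0.88 and -0.81. Mgmt, a DNA repair enzyme that removes alkyl groups from guanine, ranged from 2.89 to 9.28 CPM against 12.9, 22.5 and 19.3 CPM (-1.67). The remaining ones were Extl2 (-0.54), Chml (-0.71), Kitl (-0.77), Dmgdh (-2.23) and Vmn2r85 (-1.91). These 9 lower genes were all called by both DESeq2 and voom, at adjusted p-values of 0.0061 to 0.0421 and of 0.0168 to 0.0281. Vmn2r85 is a member of a large family of receptors with similar sequence and measured 3.35 CPM or less in every library, so its assignment is uncertain.

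Ranked by size of change among the genes that DESeq2 and voom both called, a few others stood out. Zxda, a zinc-finger gene with a close paralog, ranged from 1.43 to 6.06 CPM in IAKA mice (median 4.25) and measured 0.410, 0.913 and 0.691 CPM in PBS mice (log2 fold change 2.50). Cebpa, a transcription factor of myeloid cells and of fat and liver, ranged from 3.45 to 9.55 CPM against 2.05, 2.43 and 1.38 CPM (1.59). Bend6, a DNA-binding protein of neurons, ranged from 30.6 to 57.6 CPM against 71.3, 94.6 and 76.5 CPM (-0.78), and Triqk from 3.95 to 11.9 CPM against 13.1, 15.5 and 16.1 CPM (-0.94). Cldn19, a claudin, was at 4.39 to 19.2 CPM against 19.1, 44.4 and 35.1 CPM (-1.55), so that its groups just overlapped. DESeq2 gave these 5 genes adjusted p-values of 0.028 to 0.0487 and voom of 0.0231 to 0.042.

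Of 33 genes associated with reactive astrocytes, 21 were tested and 12 were below the filter, among them Lcn2, Timp1 and Steap4. Of the 21, 19 lay above 0, and the median log2 fold change was 0.74 beside 0.02 over all genes. At an unadjusted p under 0.05, 10 were higher, against 8.41% of all genes. DESeq2 called 2 of them higher, Gfap and Serpina3n, against 0.432% of all genes it tested. The mean deviation of the 21 genes from the PBS average was 1.79 log2 units in IAKA mouse 42, 0.962 in mouse 21 and 0.459 to 0.806 in the other 4 IAKA mice, above -0.06 to 0.08 in PBS mice. The median was 0.51 without mice 42 and 21 and 1.11 in the shared column name set.

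Serpina3n, a secreted serine protease inhibitor with close paralogs, ranged from 15.5 CPM in IAKA mouse 5 to 167 CPM in mouse 42 (median 28.4) and measured 6.15, 4.26 and 5.70 CPM in PBS mice. The log2 fold change of Serpina3n was 3.18 ± 0.96 (SE), with an adjusted p of 0.0189 in DESeq2 and 0.086 in voom. Vim, which encodes vimentin, another intermediate filament, ranged from 38.4 to 237 CPM (median 50.4) against 23.8, 17.0 and 18.1 CPM. Its log2 fold change was 2.15, and 1.19 without mice 42 and 21, where edgeR gave an adjusted p of 0.0314. Those of Osmr, a subunit of the oncostatin M receptor, Gbp2, a guanylate-binding protein, and Fkbp5, a cochaperone of steroid receptors, were 1.11, 1.10 and 0.58. Sphk1, which makes sphingosine 1-phosphate, was at the other end with a log2 fold change of -0.42 (unadjusted p = 0.198).

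Astrocyte reactivity runs in part through STAT transcription factors, and promoter windows of RefSeq (GRCm38.p6; 250 bases before to 50 after each start) were searched on both strands for TTCNNNGAA, a STAT site. It occurred in 8.30% of 32851 promoters, or 9.55% of the 27025 genes they belong to, and in 6 of 29 reactive astrocyte genes found in the table, of which 4 (Gfap, Emp1, Psmb8 and Sphk1) were tested. A match is a description of the letters and shows no binding. The windows of these 4 genes, of which Gfap leads the list, follow on the strand of the gene, with the motif in capitals.
Gfap, chr11:102897186-102897210, minus strand: gggggtgcTTCCAGGAAgtcagggg
Emp1, chr6:135362803-135362827, plus strand: caacagggTTCTTTGAAttgatggc
Emp1, chr6:135362901-135362925, plus strand: cagactgaTTCATAGAAactccttt
Psmb8, chr17:34198090-34198114, plus strand: ctccgctgTTCCCAGAAgatgcccc
Sphk1, chr11:116531788-116531812, plus strand: gagtcaccTTCTCGGAAggcactcg
The log2 fold changes of Emp1, a membrane protein, and of Psmb8, an immunoproteasome subunit, were 0.98 and 0.94 at unadjusted p-values of 0.0825 and 0.0625, beside -0.42 for Sphk1. Stat3 itself ranged from 24.1 to 76.4 CPM in IAKA mice (median 33.1), above the 19.7, 19.2 and 21.4 CPM of PBS mice (log2 fold change 0.89, unadjusted p = 0.0203 in edgeR). Its log2 fold change was 0.52 without mice 42 and 21. Vim, Emp1, Psmb8 and Stat3 were chosen after their values were seen.

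Genes of resting astrocyte functions lay closer to the controls. Of 20 tested, 17 were above 0 with a median of 0.38. At an unadjusted p under 0.05, 5 were higher, against 8.41% of all genes. The median was 0.19 without mice 42 and 21 and 0.64 in the shared column name set. Aqp4, the water channel of perivascular endfeet, ranged from 187 to 487 CPM against 180, 147 and 155 CPM, and its log2 fold change was 0.78 with all libraries and 0.34 without mice 42 and 21. Kcnj10, which encodes the potassium channel Kir4.1, and Mlc1 had values of 0.87 and 0.72, and of 0.48 each without those mice. Voom called Mlc1 alone of the 20 (adjusted p = 0.0446).

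Microglial genes were examined as 2 lists. Of 22 genes of phagocytic, disease-associated microglia, 18 were tested and 17 of these lay above 0, with a median log2 fold change of 0.92, and 10 were higher at an unadjusted p under 0.05. In 7 of the 18 the groups did not overlap, all of them higher in IAKA mice. The shares over all genes were 8.41% higher at an unadjusted p under 0.05 and 3.67% higher without overlap. All 18 homeostatic microglia genes were tested and all lay above 0, with a median of 0.66. Without mice 42 and 21 the medians were 0.63 and 0.42. Marker sums of homeostatic microglia were 300 to 655 CPM in IAKA mice and 227 to 298 CPM in PBS mice.

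Among the phagocytic genes, Ctss, a lysosomal protease, ranged from 62.8 CPM in IAKA mouse 7 to 211 CPM in mouse 42 (median 93.8), and measured 50.8, 35.9 and 45.8 CPM in PBS mice. Ctss rose by 1.33 ± 0.37 (SE) on the log2 scale, called by DESeq2 (adjusted p = 0.026) and voom (adjusted p = 0.0492), and its log2 fold change was 0.85 without mice 42 and 21. Cst7, a protease inhibitor induced in phagocytic microglia, had 1, 0 and 1 counts in PBS mice 2, 3 and 4. In IAKA mice 42, 21, 5, 7, 9 and 6 it had 48, 12, 6, 11, 28 and 33 counts, which is 1.31 to 15.8 CPM. DESeq2 and voom called Cst7 higher (adjusted p = 0.0149 and 0.0229). Clec7a, a receptor for fungal glucans that marks the same state, ranged from 1.90 to 16.1 CPM against 1.64, 0.913 and 1.21 CPM, and DESeq2 called it higher (adjusted p = 0.036). Apoe, the lipid carrier, was far more abundant, at 357 to 1026 CPM (median 644) against 377, 354 and 294 CPM, so that the groups overlapped. Voom called Apoe higher (log2 fold change 0.98, adjusted p = 0.0469), and its log2 fold change was 0.60 without mice 42 and 21.

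Trem2, a lipid-sensing receptor placed in the homeostatic list, ranged from 5.12 to 18.1 CPM against 4.30, 3.65 and 2.76 CPM. Its adaptor Tyrobp, in the same list, ranged from 2.91 to 12.8 CPM against 2.46, 2.43 and 3.28 CPM. Voom called both higher (adjusted p = 0.0331 and 0.0418), at log2 fold changes of 1.31 and 1.29, and no other of the 18. P2ry12, the ADP receptor that marks surveying microglia, was the lowest of this list, at 11.7 to 26.3 CPM against 19.9, 23.4 and 16.2 CPM (log2 fold change 0.01). Irf8 and Mpeg1, genes of macrophage identity, were among those called by both tools. The transcription factor Irf8 ranged from 2.50 to 13.8 CPM against 1.84, 1.83 and 2.42 CPM, and Mpeg1, which encodes a pore-forming protein, from 21.9 to 90.5 CPM against 12.7, 10.3 and 13.5 CPM. Their log2 fold changes were 1.91 and 1.73, and DESeq2 gave adjusted p-values of 0.0286 and 0.00473.

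**Figure D3:**
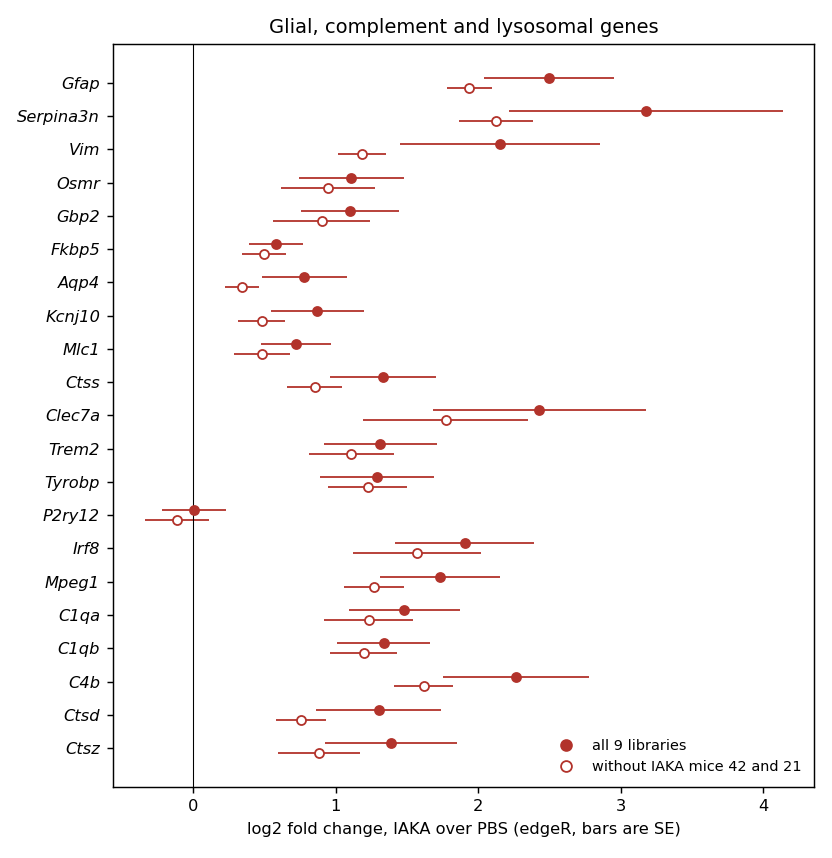
Log2 fold change (IAKA over PBS, edgeR) of 21 named glial, complement and lysosomal genes, as filled points for all 9 libraries and as open points without IAKA mice 42 and 21; bars are standard errors. The open point lies to the left of the filled point in every gene shown, and Gfap moves from 2.50 to 1.94.

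Of 16 complement genes, 12 were tested. Of these, 10 lay above 0, with a median of 1.07 (0.72 without mice 42 and 21). At an unadjusted p under 0.05, 7 were higher, against 8.41% of all genes. Both DESeq2 and voom called 3 of the 12 higher, against 0.432% and 1.44% of all genes that each tool tested. C1qa, which encodes a chain of the initiating complex C1q, ranged from 7.73 to 30.0 CPM in IAKA mice and measured 6.56, 4.56 and 5.53 CPM in PBS mice. C1qb, another chain of it, ranged from 12.4 to 34.2 CPM against 7.79, 6.39 and 7.95 CPM. C4b, the next component of the classical pathway, ranged from 28.4 CPM in mouse 5 to 121 CPM in mouse 42 against 15.8, 9.13 and 9.50 CPM, and its near-identical copy C4a makes its assignment uncertain. C1qa, C1qb and C4b rose by 1.48, 1.34 and 2.27 on the log2 scale, called by DESeq2 (adjusted p = 0.0291, 0.0247 and 0.0112) and voom (adjusted p = 0.0319, 0.0229 and 0.0375). Without mice 42 and 21 the value of C4b was 1.62, with an adjusted p of 0.013 in edgeR. C1qc, the remaining chain, had a log2 fold change of 1.40, but its groups overlapped.

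All 24 lysosomal genes were tested and lay above 0, with a median of 0.49 (0.35 without mice 42 and 21). At an unadjusted p under 0.05, 11 were higher, against 8.41% of all genes. Ctsd and Ctsz, which encode the proteases cathepsin D and Z, had log2 fold changes of 1.30 and 1.39 with no overlap between groups, and of 0.76 and 0.88 without mice 42 and 21. DESeq2 and voom called Ctss alone of the 24. Some of these genes also stand in the microglial lists.

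Of 26 interferon-stimulated genes, 22 were tested and all of these lay above 0, with a median of 0.76 (0.59 without mice 42 and 21). At an unadjusted p under 0.05, 10 were higher, against 8.41% of all genes. The list's mean deviation was 0.983 in IAKA mouse 5 and 0.995 in mouse 42, and 0.236 to 0.632 in the other 4, against -0.13 to 0.23 in PBS mice. Ifit3, an inhibitor of viral translation with close paralogs, ranged from 6.19 to 18.4 CPM against 5.74, 6.39 and 6.91 CPM, and voom called it higher (adjusted p = 0.0469). Usp18, which removes the ubiquitin-like protein ISG15, was between 1.29 and 3.64 CPM against 1.02, 0.608 and 0.518 CPM. Of 17 antigen presentation genes, 11 were tested, all above 0 with a median of 0.64 (0.39 without mice 42 and 21), and 3 were higher at an unadjusted p under 0.05. H2-D1, a class I heavy chain with close paralogs, had a log2 fold change of 1.36 and B2m, its light chain, of 0.67, or 0.74 and 0.36 without mice 42 and 21.

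Several of the best known cytokines and chemokines were too low to test. Of 33 genes in this list 20 were tested, and Il1b, Il1a, Tnf, Il6, Ccl2, Ccl3, Ccl4, Ccl5, Ccl12, Cxcl10 and Cxcl1 were all among the 13 below the filter. Il1b had 0 to 1 counts in PBS libraries and 1 to 4 in IAKA libraries, and Tnf 0 to 2 and 0 to 3. Of the 20 tested, 19 lay above 0, with a median of 0.38. Over all genes, 8.41% were higher at an unadjusted p under 0.05. The 6 that were higher at an unadjusted p under 0.05 included Csf1 (1.02, or 0.65 without mice 42 and 21), a growth factor of microglia, Ptgs2 (1.01), which encodes cyclooxygenase-2, Vcam1 (0.63, or 0.39), an adhesion molecule of endothelium, and the receptor subunit Tnfrsf1b (1.56). Neither DESeq2 nor voom called any member of this list.

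**Figure D4:**
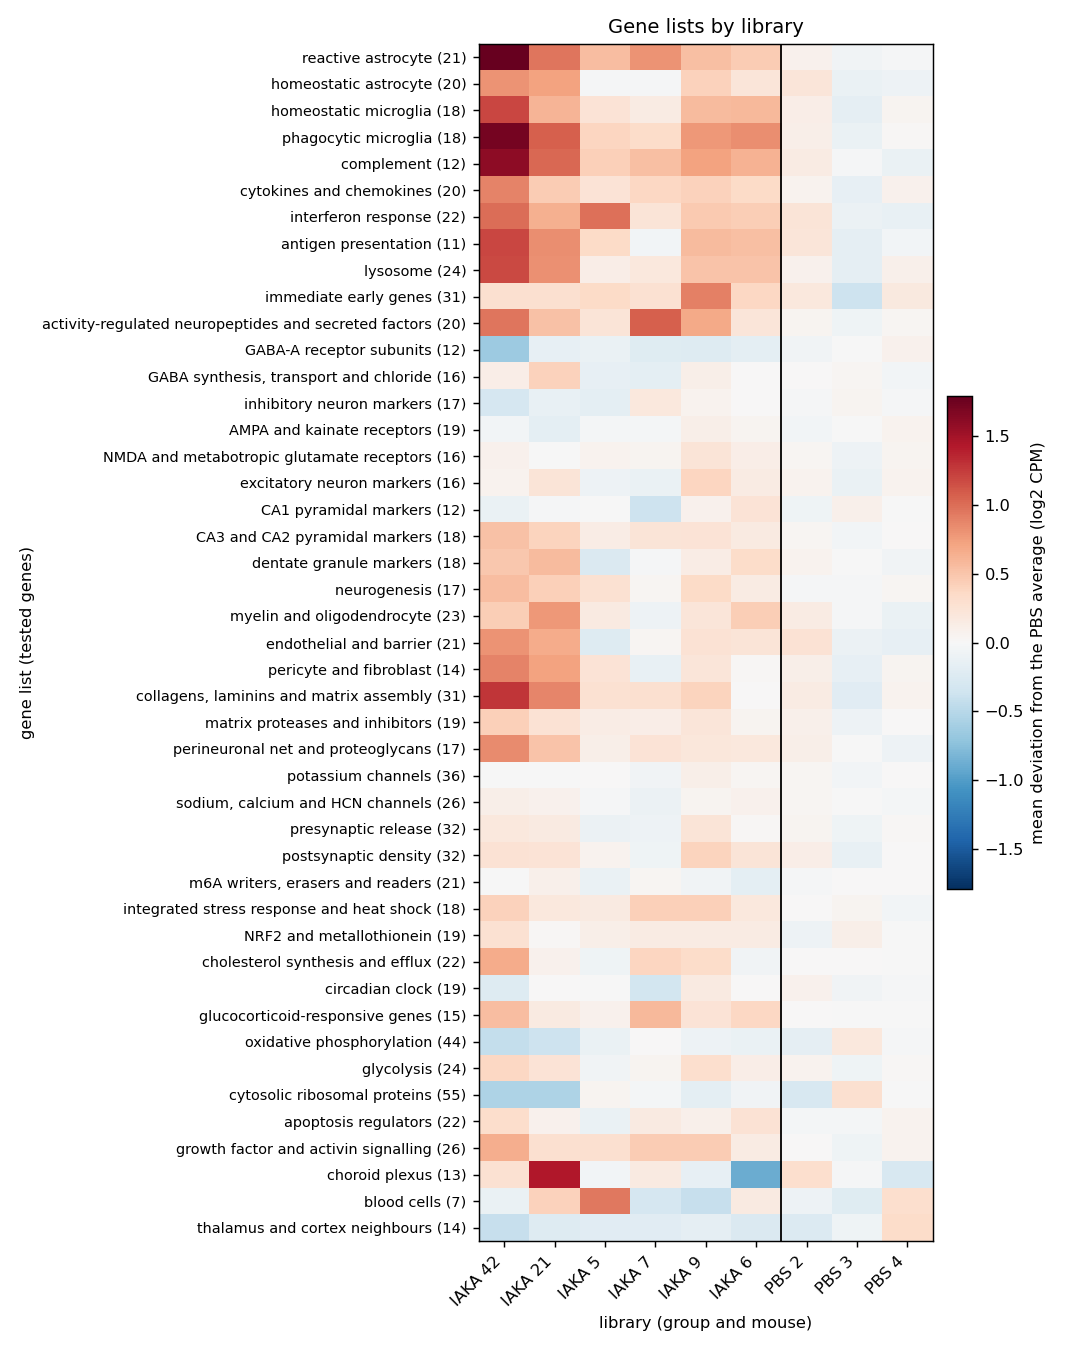
Mean deviation of each gene list from the average of the PBS libraries, in log2 CPM, for the 6 IAKA and 3 PBS libraries (columns), with 1 row per list and the number of tested genes in brackets. Red is above and blue below the PBS average. The astrocyte, microglia, complement, cytokine, interferon, antigen presentation and lysosome lists are highest in IAKA mouse 42, and the ribosomal protein list is lowest in mice 42 and 21, at -0.55 and -0.56.

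Immediate early genes report recent neuronal activity. Of 36, 31 were tested, 24 of these lay above 0 and the median log2 fold change was 0.44, and 0.43 without mice 42 and 21. It was 0.26 in the shared column name set, 0.24 without IAKA mouse 9 and 0.25 without PBS mouse 3. At an unadjusted p under 0.05, 11 were higher and 2 lower, against 8.41% and 5.69% of all genes. The list's mean deviation was highest in IAKA mouse 9 at 0.898, and 0.274 to 0.366 in the other 5 IAKA mice, against -0.37, 0.18 and 0.19 in PBS mice 3, 4 and 2. Ier5, described above, was the only member that DESeq2 or voom called.

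Egr3, a zinc-finger transcription factor, ranged from 10.7 to 38.6 CPM in IAKA mice (median 14.7) and measured 9.02, 3.96 and 6.22 CPM in PBS mice, without overlap (log2 fold change 1.45, DESeq2 adjusted p = 0.0712). Arc, a regulator of AMPA receptor trafficking, ranged from 29.6 to 112 CPM (median 67.7) against 40.0, 20.1 and 29.0 CPM (1.14, unadjusted p = 0.013), and in the shared column name set the log2 fold change of Arc was 0.69 (unadjusted p = 0.0906). Fosb, a partner of AP-1, ranged from 2.30 to 15.7 CPM against 3.28, 0.913 and 2.59 CPM (1.48, or 0.55 in the shared set). The highest value of each of these 3 genes was in IAKA mouse 9. Fos, the prototype of the class, was between 5.13 and 12.9 CPM against 6.15, 2.74 and 8.46 CPM, so that its groups overlapped (log2 fold change 0.44, unadjusted p = 0.226, or 0.21 in the shared set). Npas4, a neuron-specific early factor, was lower, at 0.970 to 4.90 CPM against 8.81, 1.83 and 7.95 CPM (log2 fold change -1.09, unadjusted p = 0.04, or -1.91 in the shared set), and PBS mouse 3 lay within the IAKA range.

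**Figure D5:**
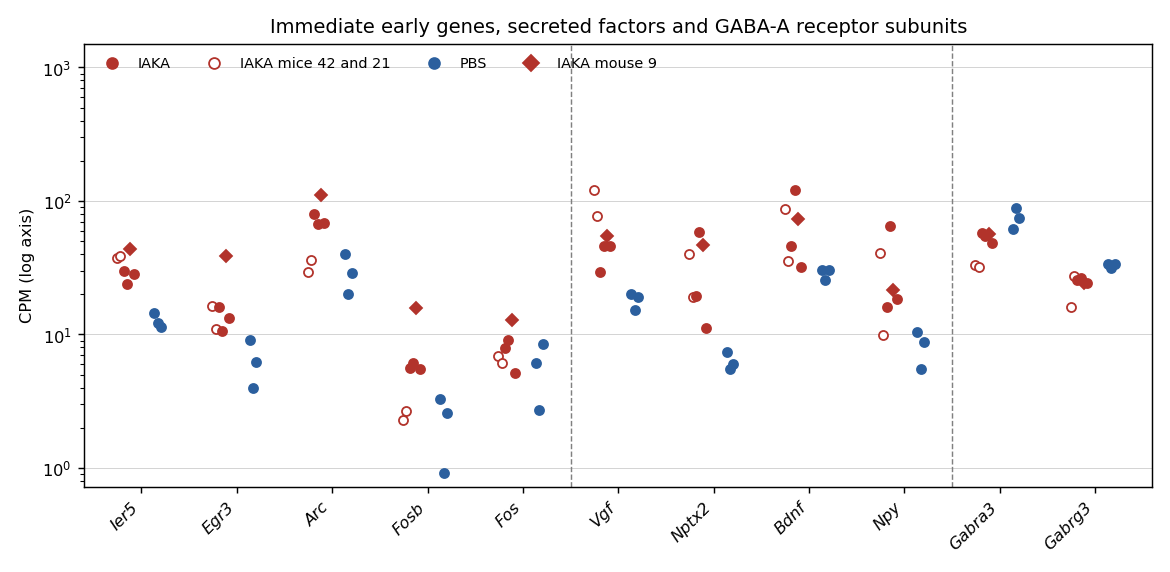
Level in CPM, on a log axis, of 5 immediate early genes, 4 secreted factors and 2 subunits of the GABA-A receptor in the 6 IAKA and 3 PBS libraries. Each point is a library, IAKA mice 42 and 21 are open symbols, and IAKA mouse 9 is a diamond. Mouse 9 has the highest level of Egr3, Arc, Fosb, Fos and Ier5 among the 6 IAKA libraries, and the groups do not overlap for Gabra3 and Gabrg3.

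The cAMP response element TGACGTCA, through which activity induces many of these genes, was found on either strand in 1.79% of all 32851 promoter windows, or 2.03% of genes, and in 4 of 29 immediate early genes in the table. The AP-1 site TGAGTCA was in 5.20% of windows, or 5.95% of genes, and in 1 of 29, Csrnp1. Only this full form of the element was searched, and Ier5 was not among the 4 genes with a match. The windows of the 3 tested genes with the cAMP response element are given, with the motif in capitals.
Btg2, chr1:134079306-134079329, minus strand: cccaataaTGACGTCAgtgagcga
Dusp1, chr17:26508600-26508623, minus strand: agggcgggTGACGTCAccgcccgg
Ppp1r15a, chr7:45526265-45526288, minus strand: ctctccggTGACGTCAgcacagcg
Btg2, an antiproliferative factor, ranged from 5.27 to 13.5 CPM in IAKA mice and from 6.69 to 11.9 CPM in PBS mice. Dusp1, a phosphatase of MAP kinases, ranged from 3.62 to 10.1 and from 3.96 to 7.60 CPM. Ppp1r15a, which directs a phosphatase to the initiation factor eIF2, ranged from 5.95 to 14.1 and from 7.91 to 10.2 CPM. Their log2 fold changes were -0.01, -0.05 and 0.07. These 3 genes and Csrnp1 are named for the motif.

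Neuropeptides and secreted factors that neuronal activity regulates had a median of 0.69 over 20 tested of 26, with 15 above 0 (median 0.48 without mice 42 and 21). At an unadjusted p under 0.05, 11 were higher, against 8.41% of all genes. Vgf, a precursor of neuropeptides, ranged from 29.4 CPM in IAKA mouse 5 to 121 CPM in mouse 42 (median 50.2), above the 20.1, 15.2 and 19.2 CPM of PBS mice. Vgf rose by 1.76 ± 0.39 (SE) on the log2 scale, called by DESeq2 (adjusted p = 0.00148) and voom (adjusted p = 0.0337), and without mice 42 and 21 it rose by 1.28, called by edgeR (adjusted p = 0.0446). Nptx2, a secreted pentraxin that clusters AMPA receptors, ranged from 11.2 CPM in mouse 6 to 59.0 CPM in mouse 7 (median 29.8) against 7.38, 5.48 and 6.05 CPM. DESeq2 called Nptx2 higher, by 2.37 ± 0.54 (SE) in the edgeR fit (DESeq2 adjusted p = 0.000657), and voom did not (adjusted p = 0.104).

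Bdnf, the neurotrophin, ranged from 32.2 to 122 CPM (median 59.4) against 30.5, 25.6 and 30.4 CPM (log2 fold change 1.19, DESeq2 adjusted p = 0.0977); it was chosen after its values were seen. Npy, an inhibitory peptide of interneurons, ranged from 9.94 to 64.8 CPM (median 20.0) against 10.5, 5.48 and 8.81 CPM (1.78). Chga, a core protein of dense vesicles, ranged from 54.9 to 172 CPM against 51.4, 42.3 and 52.0 CPM (1.03). IAKA mouse 7 had the highest value of Nptx2, Bdnf and Npy, and mouse 42 that of Vgf and Chga. Tac1, the precursor of substance P, had the lowest log2 fold change of the list at -0.66, with overlapping groups.

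In the list of growth factor and activin signals, 24 of 26 tested genes (of 28) lay above 0, with a median of 0.33, which was 0.34 without mice 42 and 21. Inhba, the ligand subunit of activin A, ranged from 7.52 CPM in mouse 21 to 42.1 CPM in mouse 7 (median 14.9) against 3.89, 6.08 and 6.91 CPM. DESeq2 called Inhba higher (adjusted p = 0.0421) at a log2 fold change of 1.85. Its receptor Acvr2a ranged from 40.0 to 52.1 CPM, below the 58.6, 73.3 and 78.8 CPM of PBS mice. Acvr2a fell by 0.59 on the log2 scale, called by DESeq2 (adjusted p = 0.0304) and voom (adjusted p = 0.0281). Smad7, the inhibitory SMAD of this pathway, ranged from 13.6 to 28.6 CPM against 11.3, 10.6 and 11.4 CPM and was called higher by both tools (log2 fold change 0.92, adjusted p = 0.0455 and 0.0363). Dusp4, a phosphatase of MAP kinases, was called by voom (log2 fold change 1.01, adjusted p = 0.0445).

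GABA-A receptors carry most fast inhibition. Of 13 subunits of the GABA-A receptor, 12 were tested and 9 lay below 0. Their median was -0.30 (-0.23 without mice 42 and 21, -0.31 in the shared column name set). At an unadjusted p under 0.05, 5 were lower and none higher, against 5.69% and 8.41% of all genes. Gabra3, an alpha subunit, ranged from 31.8 to 57.5 CPM in IAKA mice against 61.5, 87.9 and 73.9 CPM in PBS mice, and the gamma subunit Gabrg3 from 16.1 to 27.4 CPM against 33.8, 31.3 and 33.7 CPM. Their log2 fold changes were -0.66 and -0.45, at unadjusted edgeR p-values of 0.00553 and 0.0141. Neither DESeq2 nor voom called any subunit, with the smallest adjusted p in voom at 0.0522 for Gabra3 and Gabrg3. Gabrb1 was the highest of the 12 at 0.17.

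In the rest of the GABA pathway, the median over 16 genes was 0.08 (-0.03 without mice 42 and 21). Gad1 and Gad2, the enzymes that make GABA, ranged from 119 to 173 CPM and from 96.6 to 211 CPM in IAKA mice and from 117 to 141 CPM and from 110 to 141 CPM in PBS mice. Slc32a1, the vesicular GABA transporter, and Nlgn2, an adhesion molecule of inhibitory synapses, had log2 fold changes of 0.48 and 0.71 with overlapping groups, or 0.29 and 0.44 without mice 42 and 21. Markers of inhibitory neurons had a median of 0.02 over 17 tested genes, and of -0.29 in the shared column name set. Among them Erbb4, the neuregulin receptor of interneurons, ranged from 44.4 to 90.7 CPM against 118, 110 and 127 CPM, and voom called it lower (log2 fold change -0.66, adjusted p = 0.0281). Sst, the peptide of one interneuron class, ranged from 39.7 to 60.5 CPM against 42.2, 39.9 and 37.7 CPM (0.33), and Pvalb, a calcium buffer of another, from 1.65 to 14.9 CPM against 16.8, 20.1 and 10.0 CPM (-0.84, unadjusted p = 0.0701). Gad1 and Gad2 were chosen after their values were seen.

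Glutamate receptor genes went in both directions. Of 19 AMPA and kainate receptor subunits and partners, all tested, 4 were higher and 6 lower at an unadjusted p under 0.05. The shares over all genes were 8.41% and 5.69%. The median of these 19 was -0.000491, or -0.25 in the shared column name set. Gria4, an AMPA subunit of interneurons, ranged from 46.1 to 109 CPM against 107, 141 and 125 CPM (log2 fold change -0.66). Grik4 and Grik5, the high-affinity kainate receptor subunits, were both at 0.52, and voom called Grik5 higher (adjusted p = 0.0416). Of 16 genes of NMDA and metabotropic receptors 4 were higher and 2 lower, and the median was 0.04 (-0.01 in the shared set). Grin3a, an NMDA subunit that lowers calcium entry, ranged from 28.8 to 37.7 CPM, below the 44.9, 48.1 and 45.8 CPM of PBS mice, and voom called it lower (log2 fold change -0.47, adjusted p = 0.0469). Grm5, the metabotropic receptor mGluR5, ranged from 240 to 331 CPM against 333, 399 and 351 CPM (-0.38).

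Of 32 genes of the postsynaptic density 24 lay above 0, with a median of 0.24. At an unadjusted p under 0.05, 11 were higher and 5 lower, against 8.41% and 5.69% of all genes. Shank1, a scaffold, ranged from 330 to 488 CPM against 331, 236 and 244 CPM, and rose by 0.58, called by DESeq2 (adjusted p = 0.049) and voom (adjusted p = 0.0281). Voom also called the scaffold Dlgap3 higher (log2 fold change 0.64, adjusted p = 0.0337) and the adhesion molecule Nlgn1 lower (-0.48, adjusted p = 0.0484). Camk4, a nuclear calcium-dependent kinase, ranged from 96.5 to 191 CPM against 211, 194 and 231 CPM (-0.51), and neither tool called it. Of 32 presynaptic genes 22 lay above 0, with a median of 0.11 (0.07 without mice 42 and 21). DESeq2 called Unc13c, a priming factor, lower (-1.06, adjusted p = 0.0421) at 21.3 to 47.6 CPM against 59.4, 107 and 64.6 CPM, and voom called Bsn, the active zone scaffold Bassoon, higher (0.86, adjusted p = 0.0498, or 0.54 without mice 42 and 21).

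Ion channels likewise had medians near 0, 0.03 over 36 potassium channel genes and 0.07 over 26 tested sodium, calcium and HCN channel genes (-0.02 without mice 42 and 21). Kcnc2, described above, belongs to the former. Of those 36 genes, 6 were higher and 7 lower at an unadjusted p under 0.05, against 8.41% and 5.69% of all genes. DESeq2 and voom each called 1 of the 36 higher and 2 lower. Over all genes, DESeq2 called 0.432% higher and 0.256% lower, and voom 1.44% and 1.16%. The lower calls were Kcnc2 and Kcnt2, and the higher calls are not named here. Kcnt2, a sodium-activated potassium channel, ranged from 28.6 to 51.6 CPM, below 58.8, 64.2 and 65.0 CPM, and fell by 0.69, called by DESeq2 (adjusted p = 0.0357) and voom (adjusted p = 0.0249). Scn1a, the sodium channel of interneurons whose loss causes Dravet syndrome, ranged from 94.5 to 188 CPM against 203, 215 and 189 CPM (-0.52, unadjusted p = 0.00927). Voom called Cacna1h, which encodes a T-type calcium channel, higher (0.71, adjusted p = 0.0484).

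Neuronal markers were grouped by hippocampal subfield. Of 18 tested markers of CA3 and CA2 pyramidal neurons 13 lay above 0 with a median of 0.34, and of 18 tested markers of dentate granule cells 14 lay above 0 with a median of 0.37, while 12 tested CA1 markers had 6 above and 6 below 0. Prox1, the transcription factor of granule cells, ranged from 51.2 to 118 CPM against 46.1, 38.0 and 44.9 CPM, and voom called it higher (0.84, adjusted p = 0.0386). Calb1, the calcium buffer of the same cells, ranged from 82.7 to 148 CPM against 138, 217 and 205 CPM, and voom called it lower (-0.73, adjusted p = 0.0281). Dcn, which encodes decorin, was the only CA1 marker that voom called (-0.60, adjusted p = 0.0416), and this gene is also expressed by fibroblasts. The dentate median was 0.18 without mice 42 and 21.

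Of 16 markers of excitatory neurons in general, 9 lay above 0 with a median of 0.16 (0.10 in the shared column name set). Neurod2, a transcription factor of glutamatergic neurons, ranged from 54.6 to 109 CPM against 45.1, 33.2 and 42.0 CPM and rose by 0.97, called by DESeq2 (adjusted p = 0.0151) and voom (adjusted p = 0.0281). Slc17a7, the vesicular glutamate transporter VGLUT1 of hippocampal and cortical neurons, ranged from 205 to 437 CPM against 187, 167 and 201 CPM (0.71). Slc17a6, which encodes VGLUT2 and is enriched in thalamus, ranged from 9.22 to 25.2 CPM, below the 32.2, 58.4 and 32.3 CPM of PBS mice, and fell by 1.02, called by DESeq2 (adjusted p = 0.0474). The thalamic and cortical markers Rora and Rorb were also lower in all IAKA libraries, at log2 fold changes of -0.74 and -0.44, and voom called Rorb (adjusted p = 0.0418). Of the 14 tested genes of that list, 6 lay above 0 and 8 below. At an unadjusted p under 0.05, 5 were lower and none higher, against 5.69% and 8.41% of all genes. In 3 the groups did not overlap, all of them lower in IAKA mice, against 3.58% of all genes. The list's median was -0.20, and -0.10 in the shared column name set.

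Neurogenesis genes had a median of 0.27 over 17 tested of 22, of 0.15 without mice 42 and 21 and of 0.17 without mouse 21 alone. Igfbpl1, expressed in new neurons, ranged from 1.31 to 4.28 CPM against 0.615, 0.304 and 0.691 CPM (2.06), and Mki67, a marker of dividing cells, from 6.83 to 10.5 CPM against 5.94, 3.04 and 5.01 CPM (0.81). Dcx, which marks immature neurons, ranged from 20.9 to 43.6 CPM against 41.6, 38.0 and 48.2 CPM (-0.36, unadjusted p = 0.0717). Neither DESeq2 nor voom called a gene of this list.

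Myelin and oligodendrocyte genes had a median of 0.27 over 23 tested of 24, and 0.17 without mice 42 and 21. Cldn11, a tight junction protein of myelin, ranged from 25.6 to 59.7 CPM against 22.8, 16.7 and 17.8 CPM, and voom called it higher (0.89, adjusted p = 0.0396), with 0.57 without mice 42 and 21. Endothelial genes had a median of 0.31, and 0.05 without mice 42 and 21, with neither tool calling any of 21 tested. Collagens, laminins and other matrix genes had a median of 0.50 over 31 tested, 0.16 without mice 42 and 21 and 0.79 in the shared set. Col4a1, a collagen of basement membranes, ranged from 17.0 to 54.6 CPM against 13.3, 11.9 and 13.8 CPM (1.15), and 0.74 without mice 42 and 21. Voom called Mmp17, a membrane-bound metalloprotease, higher (0.65, adjusted p = 0.0281), at 34.5 to 53.7 CPM against 29.3, 25.9 and 28.5 CPM.

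Housekeeping lists were below the controls by small amounts. Of 44 genes of oxidative phosphorylation 37 lay below 0 with a median of -0.18 (-0.09 without mice 42 and 21, -0.30 in the shared set), and of 55 genes of cytosolic ribosomal proteins 49 lay below 0 with a median of -0.21 (-0.07 without mice 42 and 21, -0.32 in the shared set). The mean deviation of the ribosomal genes was -0.55 and -0.56 in mice 42 and 21, -0.18 to 0.05 in the other 4 IAKA mice, and -0.28, 0.29 and -0.01 in PBS mice 2, 3 and 4. Neither tool called a gene of either list. Of 18 tested genes of the integrated stress response and heat shock 16 lay above 0 with a median of 0.18, and Dnajb5 was the only one that DESeq2 or voom called. Of 15 tested glucocorticoid-responsive genes 12 lay above 0 with a median of 0.42, or 0.23 in the shared column name set.

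The clock genes Nfil3 and Per2 were called higher by voom (adjusted p = 0.0286 and 0.0386), with values of 1.14 and 0.75 on the log2 scale, in a list of 19 whose median was -0.06 (-0.11 without mice 42 and 21). Rorb, named before, was the third clock gene it called. Nfil3 ranged from 3.15 to 8.13 CPM against 2.87, 2.74 and 3.28 CPM, and Per2 from 16.3 to 30.6 CPM against 16.2, 15.5 and 12.8 CPM. The hour at which the mice were killed is not given in the sources used here.

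The enzymes and readers of m6A, the subject of the study, showed little difference in total RNA. Of 24, 21 were tested, 11 lay above 0 and the median was 0.02 (-0.05 without mice 42 and 21). Mettl3 and Mettl14, the catalytic core of the writer, ranged from 16.01 to 26.2 CPM against 20.9, 17.9 and 12.8 CPM, and from 24.4 to 36.6 CPM against 29.3, 29.2 and 29.4 CPM. The log2 fold changes were 0.25 ± 0.20 (SE) and -0.06 ± 0.15, those of the erasers Fto and Alkbh5 were 0.18 ± 0.15 and 0.13 ± 0.14, and those of the readers Ythdf1 and Ythdf2 were 0.02 ± 0.17 and -0.04 ± 0.13. None of these 6 had an unadjusted p under 0.05. Wtap, the subunit that anchors the writer in nuclear speckles, was the exception in the complex, at 60.9 to 104 CPM against 101, 166 and 134 CPM. Wtap fell by 0.73 (SE 0.18), called by DESeq2 (adjusted p = 0.0421) and voom (adjusted p = 0.0275), and IAKA mouse 7 lay within the PBS range. Igf2bp3, a reader protein, was called lower by voom (-0.91, adjusted p = 0.0373).

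The m6A libraries of 6 IAKA and 5 PBS mice at 2 weeks, which include the 9 mice described here, gave another reading of the named transcripts, in which the level of RNA and of its m6A mark both enter. edgeR called 0 of 16157 genes at an adjusted p under 0.05 (0%) and 809 at an unadjusted p under 0.05 (5.01%), and voom called 2, Acvr1c and the predicted gene Gm5940, both named for these calls. The log2 fold change of Gfap was 1.89 in these libraries and 2.50 in input, of C4b 1.96 and 2.27, of Ctss 1.45 and 1.33, of Nptx2 1.99 and 2.37 and of Clec7a 3.20 and 2.43. That of Ier5 was 0.33 in m6A libraries and 1.40 in input, of Mgmt 1.24 and -1.67, of Vgf -0.24 and 1.76 and of Wtap 0.29 and -0.73. The m6A library labelled IAKA mouse 6 had 150 CPM of Gfap, at the level of the PBS libraries (160 to 367 CPM), while that mouse's input library had 644 CPM. Mitochondrial reads made up 17.5% of that m6A library and 4.25% of that input library. Column names carry the prefix 3 for the m6A libraries of IAKA mice 42, 5 and 6, and 4 for those of PBS mice 50 and 78. At 2 weeks neither prefix occurs in the other group, so differences between sets lie partly within this comparison too. No test of the difference between the 2 kinds of library was made.

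Whether the IAKA difference changed between 24 hours and 2 weeks was examined with an interaction term in a fit of all 16 input libraries. edgeR called 1 of 14150 genes at an adjusted p under 0.05 (0.00707%) and held 451 at an unadjusted p under 0.05. This gene was Tm4sf1, a membrane protein of reactive astrocytes and endothelium, whose log2 fold change was 3.34 at 24 hours and 0.37 at 2 weeks (interaction -2.97, adjusted p = 0.0341). The 24-hour groups were 3 PBS and 4 IAKA libraries, of which 2 and 1 held under 100000 counts. Without these 3 libraries a single PBS library stood for the controls at 24 hours, assumed to vary as the other groups do, and edgeR called 0 of 17644 genes and held 543 at an unadjusted p under 0.05, and the interaction of Tm4sf1 was -2.95 (adjusted p = 0.597). Fos went from 4.01 at 24 hours to 0.44 at 2 weeks (interaction -3.58, adjusted p = 0.351). Trib1, a pseudokinase, and Lyz2, the lysozyme of macrophages, came next among the genes with the smallest p, at interactions of -2.23 and -2.42 (adjusted p = 0.351 and 1.00). Gfap stood at 2.30 and 2.50 (interaction 0.18, unadjusted p = 0.83).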

How the data were processed

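Hippocampal RNA was extracted with TRIzol, and 50 ng of total RNA per mouse went into the SMARTer Stranded Total RNA-Seq Kit v2. The authors deposited raw read counts per gene symbol, 32544 symbols in 15 files with 4 lanes per library. The submitters' processing notes name the build mm10, the sources used here name neither the aligner nor the counting program, and whether strand was used in counting is not stated, so a gene and its antisense partner may share reads. The 140 lane columns were summed to 35 libraries, and 8 columns that no label matched were not used. Libraries were assigned by the mouse number, treatment and time in their labels, and those whose column carries no prefix were taken as input from that naming. No pair of libraries agreed within sampling noise.

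The 6 IAKA and 3 PBS libraries were compared in R 4.3.3 with edgeR 4.0.16 (filterByExpr, TMM scaling, robust quasi-likelihood F test, Benjamini-Hochberg adjustment over all tested genes). The SE was taken from the fold change and its F statistic, as the absolute log2 value over the root of F. Levels are CPM on TMM-scaled library sizes, and log2 levels used a prior count of 2. DESeq2 1.42.0 and limma 3.58.1 voom with quality weights were run on the same counts, along with other filters, scaling by library size, the column name set as a block, all 16 input libraries together, and each library left out in turn. Leaving out mice 42 and 21, and using the shared column name set alone, were added after seeing the data. edgeR, DESeq2 and voom were also run on simulated counts whose levels and spread came from the main comparison. The outcome is not reported here. A list score is the mean, over its tested genes, of a library's log2 CPM minus the PBS mean.

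Genes were named by a rule that took, leaving out Gm, Rik and mitochondrial symbols, the 10 higher and 10 lower genes with the smallest edgeR p and no overlap between groups. It also took the 10 of each direction with the largest change among those DESeq2 and voom both called, up to 5 members of each list by p with the lowest and highest, 7 fixed genes (Gfap, Mettl3, Mettl14, Fto, Alkbh5, Ythdf1 and Ythdf2), and the 5 leading changes between time points. Some genes that the rule took are not reported here. Members and lists were chosen with earlier results of these data known. P-values measure the spread between these mice only. PCR duplicates were not marked by molecular identifiers in the counts, so low counts carry at least counting error. Promoter windows are those of RefSeq.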

Additional observations from a re-analysis of the deposited data

Results flagged for a closer look

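In 19 of 128 named genes and in 3 of 45 lists, 1 of the 6 IAKA libraries lay far from the rest, with a gap to its nearest neighbour that was large beside the whole range (Dixon's test). For normally distributed values chance alone gives such a gap in about 1 group in 20, and genes within a library are not independent. The CPM of the genes were not log-transformed here, and most genes were named from these same data. That rate is therefore no exact reference for these counts. Mouse 42 was the library in 12 of the 19 genes. It was highest for Gfap (2218 CPM), Serpina3n (167 CPM), Stat3 (76.4 CPM) and Kcnj10 (169 CPM) among astrocyte genes, and for Mpeg1 (90.5 CPM), Cst7 (15.8 CPM), Ctsd (398 CPM) and C1qc (34.6 CPM) among microglial and lysosomal genes. It was also highest for Cacna1h (65.8 CPM) and Grik4 (30.6 CPM), and lowest for the interneuron receptor Erbb4 (44.4 CPM) and for Gabrg3 (16.1 CPM). Its mean deviation was the highest for cytokines and chemokines, at 0.892, and the lowest for GABA-A receptor subunits, at -0.65.

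Mouse 9 stood apart in immediate early genes, with 38.6 CPM of Egr3, 15.7 CPM of Fosb and a mean deviation of 0.898 over the list. Genes of GABA synthesis and packaging stood out in other mice, with Gad1 at 173 CPM and Slc32a1 at 35.9 CPM in mouse 21, and Gad2 at 211 CPM in mouse 7. Mouse 7 was also highest for the neuropeptide precursor Tac1 (7.38 CPM) and for Igf2bp3 (47.8 CPM). The log2 fold change of Tm4sf1 differed between 24 hours and 2 weeks by -2.97 in the interaction test over all 16 input libraries. Without the 3 shallow libraries, which leaves 1 PBS library at 24 hours, the value was -2.95 and was not called (adjusted p = 0.597).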

How the results depend on the processing

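Depth limits the low genes, such as the cytokines, and 3 PBS libraries set the precision. Against 0 genes at an adjusted p under 0.05 in edgeR, DESeq2 called 113, voom 357, and edgeR without the filter 4 (Ier5, Rara, Shox2 and Gm19202). It called 0 to 1 with 1 library left out, namely Gfap without IAKA mouse 42, Ier5 without IAKA mouse 7 and Shox2 without PBS mouse 2, and 5 without mice 42 and 21. Of these, Shox2 and Gm19202 are named only for these calls. The 1938 genes at an unadjusted p under 0.05 became 3287 in voom, 1149 with all 16 input libraries in 1 fit, and 901 to 2564 with 1 library left out, the lowest being without PBS mouse 3 and 1162 without PBS mouse 4. The change between time points had 1 call, or 0 without the shallow libraries (1 PBS library left at 24 hours), and the m6A comparison 0, or 2 in voom. The causes were not tested.

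Over the 128 named genes, 2627 of 2668 values kept the direction of the main comparison. All 41 that did not lie in 10 genes, 9 of them near 0 and the other Tac1 (-0.66). Most of these genes were named from these same counts, and the alternatives reuse the same libraries. A kept direction was therefore largely fixed by that choice and is no independent check. With 1 library left out, the log2 fold change ran from -0.18 to 0.20 for Btg2, -0.33 to 0.18 for Dusp1, -0.019 to 0.15 for Gad1, -0.22 to 0.14 for Gad2, -0.13 to 0.13 for P2ry12, -0.076 to 0.20 for Ppp1r15a, -1.19 to 0.083 for Tac1, -0.12 to 0.13 for Ythdf1 and -0.092 to 0.021 for Ythdf2. Without mice 42 and 21 it was 0.031 for Btg2, 0.12 for Dusp1, -0.017 for Gad1, -0.11 for P2ry12 and -0.15 for Ppp1r15a. With the column name set as a block it was -0.15 for Gad2, 0.063 for Mettl14, -0.0060 for Ythdf1 and 0.0025 for Ythdf2, and in the shared set alone -0.15, 0.065, -0.0030 and 0.0056. Voom gave -0.11 for Gad2 and -0.078 for Ppp1r15a, library size alone -0.030 for P2ry12 and -0.017 for Ythdf1, and all 16 libraries -0.00083 for P2ry12. Of 945 list medians, 927 moved by less than the spread (SD) of the list score between IAKA libraries. Mice 42 and 21 enter that spread, so the limit is wide and does not show that a median held. Without these mice the choroid plexus median went from 0.34 to -0.28 (SD 0.759). The collagen and matrix median went from 0.50 to 0.16 (SD 0.469). Both lie within the limit. No paired analysis was possible because the groups compared share no mouse numbers.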

Other observations

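Shox2, a homeobox gene expressed in thalamus and not in the gene lists, was below the filter on low counts with all 9 libraries and was looked at after edgeR called it in other settings. It had 3, 20 and 40 counts in PBS mice 2, 3 and 4, and 0, 0, 1, 3, 2 and 1 counts in IAKA mice 42, 21, 5, 7, 9 and 6. PBS mice 3 and 4 thus held most of its counts, and PBS mouse 2 lay at the level of IAKA mouse 7.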
